A study of Mus musculus with 6 samples.

Results

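Mitosis, kinetochore and spindle genes were followed through the return of Pax5 in a mouse leukemia. They are 50 genes chosen by symbol for their part in cell division, out of 26286 genes in the count table. The choice was made with earlier results of these data known. All 50 matched an Entrez Gene identifier under their current symbol. The cells were B progenitor acute lymphoblastic leukemia cells of a single leukemia, A024, from tri-transgenic mice, sorted from the bone marrow of Rag1 knockout mice that carried it. The untreated group was 3 mice given no drug (0 days), whose sorted cells were GFPhigh. The other group was 3 mice fed doxycycline (dox) for 3 days, labelled as Pax5 restoration, whose sorted cells were GFPmid. Both groups came from that 1 leukemia, so the spread between libraries is that between mice carrying it, not between leukemias. Treatment and GFP gate changed together and cannot be told apart, and no dox-fed group that keeps Pax5 low was analysed here. Background on the published model, not stated in the labels, is that a dox-controlled short hairpin RNA against Pax5 travels with GFP, and that dox switches the hairpin off.

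Mitosis is driven by the kinase Cdk1 with its cyclins, and each step has its own machinery. Kinetochores built on centromeres attach chromosomes to spindle microtubules, the spindle checkpoint holds back anaphase until all are attached, and condensin compacts the chromosomes. Most of these genes are transcribed in G2 and M phase through the MuvB complex with B-Myb and Foxm1, which act at short promoter elements called CHR (cell cycle genes homology region) beside CCAAT boxes bound by NF-Y. Resting cells keep the same promoters silent, so the RNAs are widely used as marks of dividing cells. In bulk RNA a smaller share of dividing cells and less RNA in each dividing cell cannot be told apart.

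Promoters are shown first, because these genes share letters in them. The letters were not used to choose the genes. They are known from genes with this function, however, so a high share was likely from the choice itself. RefSeq promoter windows (build GRCm38.p6, 250 bases before to 50 after a start) were at hand for 41 of the 50 genes, 44 windows in all. Below are 230 bases, from 200 before to 30 after the start, 5′ to 3′ on the strand of the gene, in lower case with CHR letters (TTTGAA or TTCGAA, or their reverse complement) and CCAAT letters (CCAAT, or ATTGG on the other strand) in capitals. The first 3 genes fell after dox, Nek2 had the smallest fall that passed the test, and Cdc25b and Pttg1 did not pass it. Cdk1 is shown at chr10:69352883-69353112 on the minus strand, Espl1 at chr15:102296093-102296322 on the plus strand and Cdc20 at chr4:118437314-118437543 on the minus strand. Nek2 is shown at chr1:191821273-191821502 on the plus strand, Cdc25b at chr2:131186748-131186977 on the plus strand and Pttg1 at chr11:43425952-43426181 on the minus strand.
Cdk1: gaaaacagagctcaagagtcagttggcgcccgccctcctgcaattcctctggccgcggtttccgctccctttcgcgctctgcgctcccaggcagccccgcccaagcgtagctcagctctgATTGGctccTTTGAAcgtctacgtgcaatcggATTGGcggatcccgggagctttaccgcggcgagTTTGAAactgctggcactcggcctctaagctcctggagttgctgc
Espl1: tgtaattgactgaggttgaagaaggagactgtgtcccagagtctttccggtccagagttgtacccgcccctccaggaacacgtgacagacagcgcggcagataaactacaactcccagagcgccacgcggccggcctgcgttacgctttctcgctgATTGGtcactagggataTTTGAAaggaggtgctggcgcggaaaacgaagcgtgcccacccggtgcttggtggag
Cdc20: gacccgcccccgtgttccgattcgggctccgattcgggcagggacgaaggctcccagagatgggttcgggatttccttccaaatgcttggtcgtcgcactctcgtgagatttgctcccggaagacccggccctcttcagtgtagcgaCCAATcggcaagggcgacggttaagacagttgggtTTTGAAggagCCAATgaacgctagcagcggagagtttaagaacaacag
Nek2: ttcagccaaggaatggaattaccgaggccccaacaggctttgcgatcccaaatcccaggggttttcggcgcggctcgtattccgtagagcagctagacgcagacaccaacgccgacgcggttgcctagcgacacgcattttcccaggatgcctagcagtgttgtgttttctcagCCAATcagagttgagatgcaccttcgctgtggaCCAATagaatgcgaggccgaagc
Cdc25b: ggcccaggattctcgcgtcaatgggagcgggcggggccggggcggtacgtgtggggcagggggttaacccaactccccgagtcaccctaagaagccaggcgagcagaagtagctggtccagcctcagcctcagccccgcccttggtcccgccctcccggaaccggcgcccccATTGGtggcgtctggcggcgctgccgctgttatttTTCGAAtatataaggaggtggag
Pttg1: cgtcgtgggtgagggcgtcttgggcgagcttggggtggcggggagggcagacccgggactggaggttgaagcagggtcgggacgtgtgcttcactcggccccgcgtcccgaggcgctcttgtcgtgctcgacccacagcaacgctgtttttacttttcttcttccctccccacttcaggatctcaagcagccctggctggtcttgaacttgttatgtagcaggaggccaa

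CHR letters stood in 35 of the 44 windows (79.5%) and CCAAT letters in 34 (77.3%), with both in 31 (70.5%). The same letters were found in 19.2% and 37.4% of all 32851 windows of equal length in the table, with both in 7.52%. Among windows of the other genes tested here the shares were 14.0%, 38.2% and 5.71%. A pair of E2F-like motifs, TTCCCGC and TTGGCGC, searched on both strands, stood in 9 windows (20.5%), against 6.81% of all windows and 12.2% of those of the other genes tested. A CHR and a CCAAT match shared a base once, and an E2F-like and a CCAAT match 3 times. Of 47 CHR matches, 32 began within 50 bases of the start on either side. CCAAT matches lay mostly upstream of the start, as the plot of motif positions shows. Each window also holds more bases before the start (250) than after it (50). Windows of Bub3, Ect2 and Prc1 overlap, so some matches are counted more than once. In the Cdk1 window CHR letters began 71 and 15 bases before the start, in Cdc20 18 bases and in Espl1 27 bases before it. These matches are letters, not measured binding.

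**Figure D1:**
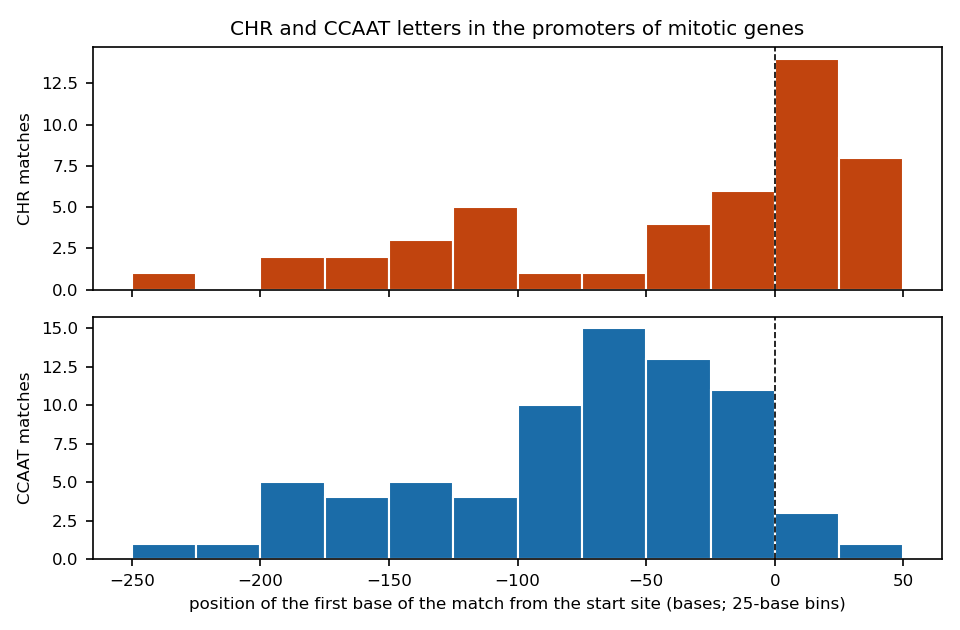
Number of CHR (upper) and CCAAT (lower) matches in the 44 promoter windows of mitotic genes, by position of the first base from the start site in 25-base bins, with the start as a dashed line. Of the 47 CHR matches, 32 begin within 50 bases of the start. The 73 CCAAT matches lie mostly before it, as do most bases of each window, counted per bin. Overlapping windows of Bub3, Ect2 and Prc1 repeat some matches.

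Only Cdc25b and Pttg1 did not pass the test, so whether the letters separate genes that fell from those that did not cannot be judged. The median log2 fold change was −0.95 for the 28 genes with both motifs and −0.98 for the 13 without both. Cdc25b, whose level did not pass the test, held CHR letters 8 bases after the start and a CCAAT match 28 bases before it. Pttg1 held neither in its window, and nor did Nuf2, Mad2l1, Mybl2, Ncaph or Birc5, which fell. Finding no match says only that these letters are not in this window. For Mad2l1, Mybl2 and Birc5 the bases after the start also matched no GENCODE M21 transcript of the gene, so their starts are less certain.

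Nearly the whole set fell after 3 days of dox. Levels below are in CPM, counts scaled to a common library total with TMM factors, or in RPKM, the same divided by gene length in kilobases. Library values are given in the order of replicates 1, 2 and 3, and changes are log2 fold changes, dox over untreated, with their standard error (SE). Of the 50 genes, 48 were lower (96%) and 0 higher, and Cdc25b and Pttg1 did not pass the test. Because the 50 were chosen with earlier results of these data known, these counts describe the set only. Over all 12275 genes tested, 26.6% were lower and 27.0% higher at the same threshold, a Benjamini-Hochberg adjusted p under 0.05 by the quasi-likelihood test of edgeR. Among the 7632 genes with a mean CPM at least that of the lowest of the 50, the share lower was 32.7%. Every dox library lay below every untreated library for 47 of the 50 genes (94%), against 31.0% of all genes tested. The median log2 fold change was −0.96, a 1.94-fold fall, beside 0.01 over all genes tested, and 4.68% of all genes fell as far as that median or further. All 50 passed the filter on low counts, and the fewest reads of any of them in a library were 194.

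The falls were close to each other in size. Of the 50 log2 fold changes, 43 lay between −1.2 and −0.7, with quartiles of −1.01 and −0.85. A fall of at least 1.5-fold was measured for 45 genes and of at least 2-fold for 16. Required to exceed 1.5-fold by the test itself, 34 of the 48 genes called lower passed, and 14 did not. Across the 50 genes the log2 fold change showed no visible relation to the untreated level in RPKM (Spearman's rho −0.02, Pearson's r −0.08) or to gene length (rho −0.20, r −0.12). Genes share libraries and are not independent, so these correlations describe the set only.

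**Figure D2:**
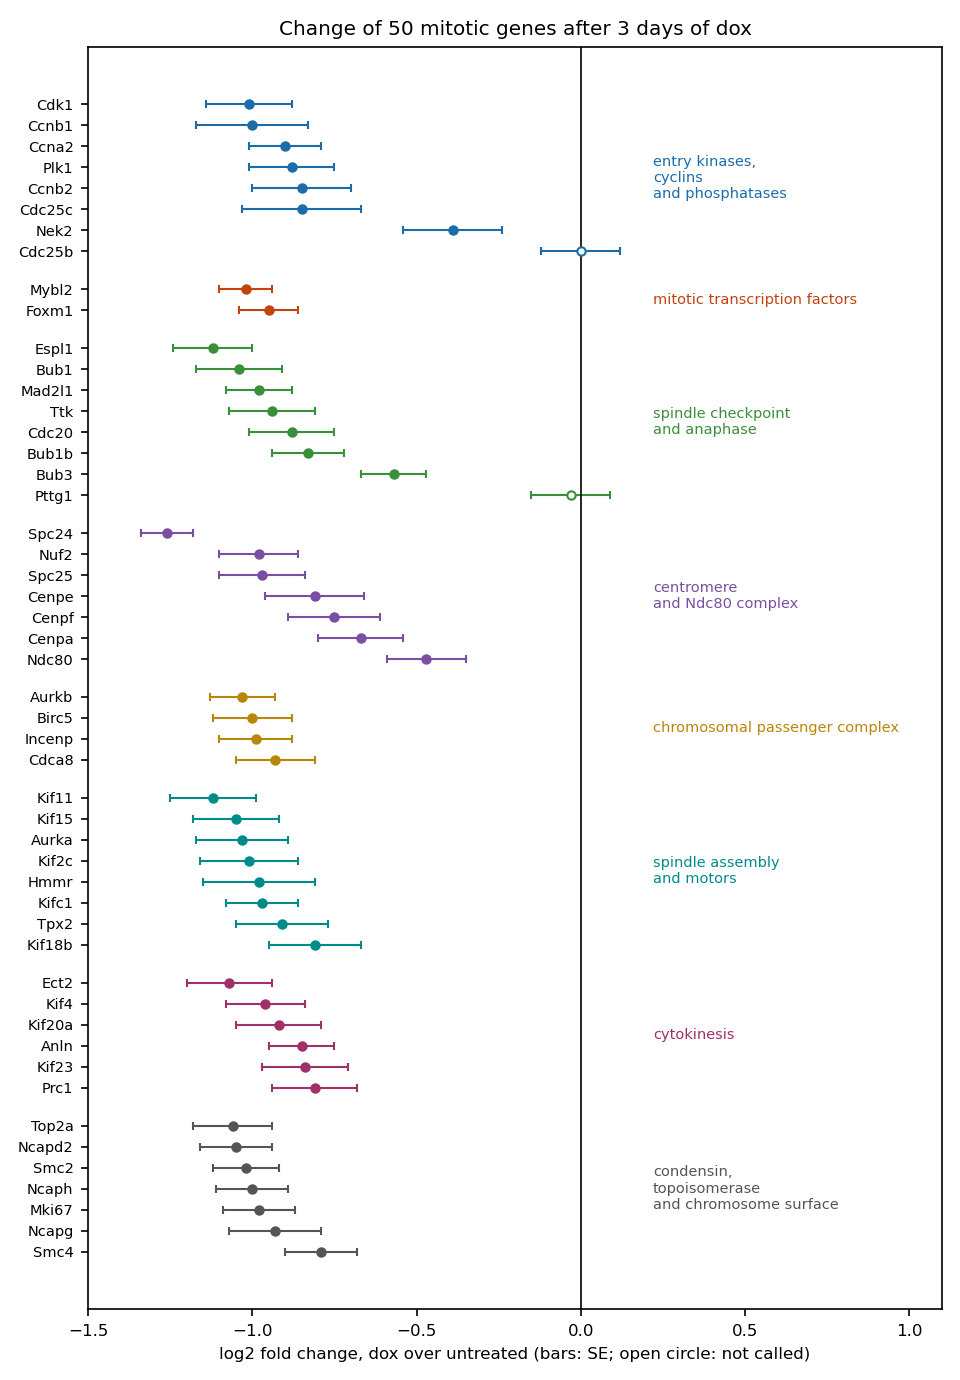
Log2 fold change of each of the 50 genes, dox over untreated (3 libraries each), grouped by role, with bars for the standard error (SE) and open circles for genes that did not pass the test. Most points lie between −1.2 and −0.7, Spc24 is lowest at −1.26, and Bub3, Ndc80, Nek2, Cdc25b and Pttg1 stand to the right.

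The 3 dox libraries differed among themselves in the same way for most genes. Dox replicate 2 was the lowest dox library for 48 of the 50 genes and dox replicate 3 the highest for 45. In the untreated group replicate 1 was lowest for 47 genes and replicate 2 highest for 41. Medians relative to the untreated mean were −0.17, 0.12 and 0.03 (log2) without dox and −0.91, −1.18 and −0.72 with it. The 50 genes together took 1.40%, 1.71% and 1.61% of the scaled reads untreated and 0.856%, 0.724% and 0.955% after dox. The groups therefore did not overlap in the summed level. Leaving out dox replicate 2 gave a median of −0.82 and 47 genes lower, and leaving out dox replicate 3 gave −1.05 and 48.

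**Figure D3:**
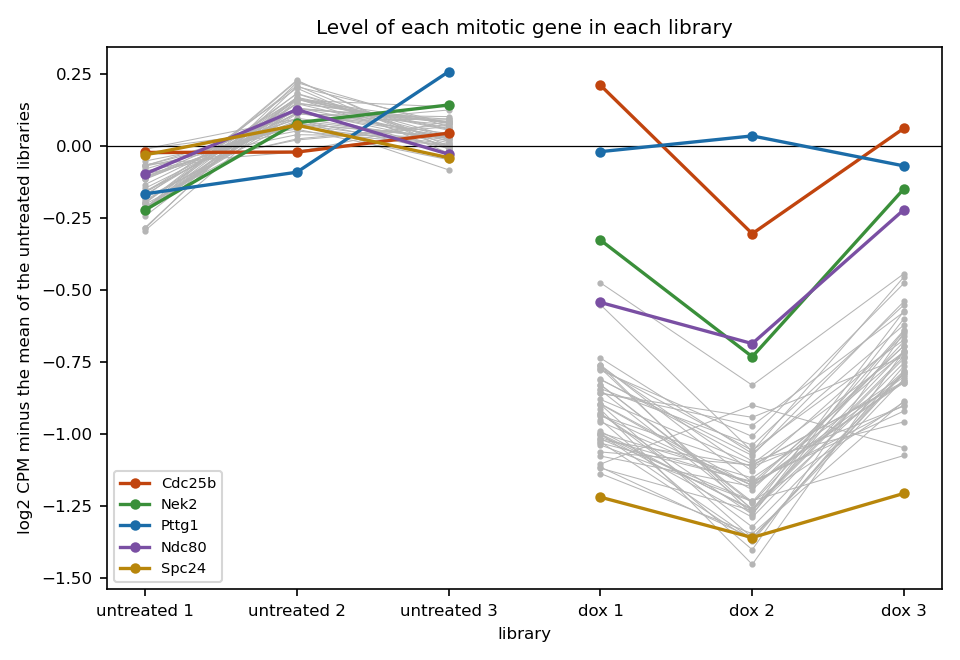
Log2 CPM of each of the 50 genes in each of the 6 libraries, minus its mean over the untreated libraries; grey lines are the genes not named in the legend. Dox replicate 2 is the low point of most lines, Pttg1 stays near 0 while Cdc25b lies on both sides of it, and Spc24 is low in all 3 dox libraries.

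Total counts ran from 14185203 to 15612435 per library. Pax5, the restored gene, measured 153.8, 93.5 and 105.2 CPM untreated and 227.2, 281.2 and 230.6 CPM after dox, without overlap (1.07, SE 0.17, adjusted p = 0.000695, edgeR). Summed over 7 B progenitor markers, Pax5 included, the level was 3509.7 to 3672.2 CPM in untreated and 6149.1 to 6571.8 CPM in dox libraries, and all 7 were higher, among them Vpreb1 (0.81) and Cd79b (1.15). Over all genes tested 27.0% were higher, the share to set beside these marker counts. Of 10 neutrophil markers 7 were tested and all 7 were higher, among them S100a9 (1.51, SE 0.48) and S100a8 (1.70, SE 0.45). Both overlapped between groups: dox replicate 2 measured 31.2 and 22.9 CPM, untreated replicate 1 39.1 and 23.1 CPM. Neutrophil sums were 87.5 to 111.6 CPM untreated and 519.5, 112.2 and 247.6 CPM after dox, highest in dox replicate 1. Macrophage markers were higher for 7 of 8, among them Vcam1 (2.83), the exception being Cd68 (0.25), with sums of 6.91 to 12.6 and 28.9 to 37.7 CPM. None of the 3 erythroid markers tested (Hbb-b1, Hba-a1 and Alas2) was called at sums of 3.42 to 5.03 and 1.04 to 6.52 CPM. Of the T and NK markers only Klrb1c was tested (0.30, adjusted p = 0.658, edgeR), with Cd3e and Cd8a at 0 counts in all 6 libraries, Ncr1 at 0 in the untreated and Cd3g at 0 in the dox libraries. The 50 mitotic genes were lowest in dox replicate 2, the dox library with the lowest neutrophil sum, and the part of these cells in the falls was not tested.

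The genes that drive entry into mitosis fell, with the exception of Cdc25b. Of 8 measured, 7 were lower (median −0.86). Cdk1 (Entrez Gene 12534), the kinase that starts mitosis, measured 230.4, 261.7 and 252.9 CPM untreated and 133.0, 96.5 and 141.5 CPM after dox. The groups did not overlap (log2 fold change −1.01, SE 0.13, adjusted p = 0.000216, edgeR). Its cyclins moved with it: Ccna2, which acts in S and G2 phase, changed by −0.90 (SE 0.11), and the mitotic cyclins Ccnb1 by −1.0 (SE 0.17) and Ccnb2 by −0.85 (SE 0.15). Ccnb1 has processed pseudogenes at up to 99.2% identity, and Ccna2 shares transcribed sequence with its neighbour Exosc9, so both counts are uncertain. Plk1, a kinase acting from entry to cytokinesis, changed by −0.88 (SE 0.13).

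Nek2, a kinase that separates centrosomes, had the smallest fall that passed. Its levels were 150.1, 185.2 and 193.3 CPM untreated and 139.6, 105.4 and 158.0 CPM after dox. Dox replicate 3 lay above untreated replicate 1, so the groups overlapped (−0.39, SE 0.15, adjusted p = 0.0465, edgeR). The call was lost without untreated replicate 2 (adjusted p = 0.125), untreated replicate 3 (0.15), dox replicate 1 (0.0697) or dox replicate 2 (0.0899), and with upper-quartile scaling (0.0542), and its adjusted p ran from 0.0122 to 1 over all alternatives.

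Cdc25b and Cdc25c encode phosphatases that switch Cdk1 on, and they parted. Cdc25b (12531) measured 505.1, 505.5 and 529.1 CPM untreated and 593.8, 415.3 and 535.5 CPM after dox. Dox replicate 1 was the highest of all 6 and dox replicate 2 the lowest (log2 fold change 0.00, SE 0.12, adjusted p = 0.976, edgeR). Cdc25c (12532) measured 26.6, 37.8 and 34.0 CPM untreated and 19.0, 13.5 and 21.8 CPM after dox, without overlap (−0.85, SE 0.18, adjusted p = 0.00327). Per length, Cdc25b was the fifth most abundant of the 50 before dox at 163.8 ± 4.38 RPKM (SD, n = 3) and Cdc25c stood at 16.9 ± 2.95 RPKM. Part of the Cdc25c transcript is identical to one of Gm3550, so its reads may be shared.

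Both transcription factors of the mitotic programme fell. Foxm1, which activates G2 and M phase genes, measured 226.8, 271.8 and 257.0 CPM untreated and 143.2, 117.6 and 129.2 CPM after dox (−0.95, SE 0.09, adjusted p = 4.87e-05, edgeR). Mybl2, which encodes B-Myb, measured 55.3, 60.2 and 62.3 CPM and then 27.5, 31.7 and 28.6 CPM (−1.02, SE 0.08, adjusted p = 2.04e-05). Mybl2 was among the few genes for which dox replicate 2 was not the lowest dox library. A processed pseudogene, Gm3320, matches part of it at 99.7% identity.

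In the spindle checkpoint and at the onset of anaphase 7 of 8 genes were lower (median −0.91), and Pttg1 did not pass. Espl1 (105988), which encodes separase, the protease that cuts cohesin, had the largest fall of the group, from 144.9, 198.4 and 195.2 CPM to 87.7, 75.6 and 84.3 CPM (−1.12, SE 0.12, adjusted p = 7.7e-05, edgeR). Pttg1 (30939) encodes securin, the inhibitor that holds separase back. It measured 18.7, 19.7 and 25.1 CPM untreated and 20.7, 21.5 and 20.0 CPM after dox, with every dox library inside the untreated range (−0.03, SE 0.12, adjusted p = 0.866). At 12.2 ± 1.99 RPKM it had the lowest untreated level per length of the 50 genes.

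The measured falls of the checkpoint genes themselves differed in size, though no ratio between them passed the correction given further below. Bub1, a checkpoint kinase, measured 147.3, 169.3 and 162.3 CPM untreated and 78.1, 61.5 and 93.8 CPM after dox (−1.04, SE 0.13). Bub1b, which encodes BubR1, measured 385.1, 482.4 and 429.5 CPM and then 251.7, 206.7 and 269.9 CPM (−0.83, SE 0.11). Bub3, the adaptor that carries both to kinetochores, fell less, from 276.1, 289.4 and 268.9 CPM to 199.9, 156.2 and 204.4 CPM (−0.57, SE 0.10, adjusted p = 0.00125, edgeR). None of the 3 genes overlapped between groups. Mad2l1, which encodes the checkpoint effector Mad2, changed by −0.98 (SE 0.10), the kinase gene Ttk by −0.94 (SE 0.13), and Cdc20, which activates the anaphase-promoting complex and is the target of Mad2, by −0.88 (SE 0.13). The count of Mad2l1 is uncertain, since the processed pseudogene Gm42430 matches part of it at 95.4% identity.

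All 7 genes of the centromere and the Ndc80 complex were lower, between −1.26 and −0.47 (median −0.81). The Ndc80 complex is the microtubule grip of the kinetochore and is built from Ndc80, Nuf2, Spc24 and Spc25. Spc24 (67629) had the deepest fall of all 50 genes, from 73.9, 79.4 and 73.4 CPM to 32.4, 29.4 and 32.7 CPM (−1.26, SE 0.08, adjusted p = 5.52e-06, edgeR). Ndc80 (67052) fell least in the group, from 92.4, 107.9 and 96.9 CPM to 67.8, 61.4 and 84.8 CPM (−0.47, SE 0.12, adjusted p = 0.00802). For neither gene did a dox library reach the lowest untreated one. Nuf2, the direct partner of Ndc80, measured 135.3, 153.9 and 149.4 CPM and then 73.4, 60.7 and 87.5 CPM (−0.98, SE 0.12), and Spc25 changed by −0.97 (SE 0.13). Cenpa, the histone that marks centromeres, changed by −0.67 (SE 0.13), Cenpe, a kinetochore motor, by −0.81 (SE 0.15) and Cenpf, a large kinetochore and nuclear matrix protein, by −0.75 (SE 0.14).

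The chromosomal passenger complex, which corrects faulty attachments and then moves to the midzone, fell as an even set. Its 4 genes were all lower, between −1.03 and −0.93. Aurkb, its kinase, measured 215.6, 259.6 and 260.7 CPM untreated and 121.0, 108.6 and 130.9 CPM after dox (−1.03, SE 0.10). Cdca8, which encodes borealin, measured 167.2, 183.4 and 175.5 CPM and then 97.3, 73.1 and 105.6 CPM (−0.93, SE 0.12). The scaffold gene Incenp changed by −0.99 (SE 0.11) and Birc5, which encodes survivin, by −1.0 (SE 0.12). In no library of the dox group did any of the 4 reach its untreated range.

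All 8 genes of spindle assembly and its motors were lower (median −0.99). Kif11, the motor that pushes spindle poles apart, fell from 540.7, 702.5 and 626.1 CPM to 281.4, 243.4 and 335.2 CPM (−1.12, SE 0.13, adjusted p = 0.000117, edgeR). Kif18b, a motor that shortens astral microtubules, had the smallest change, from 110.4, 150.3 and 127.3 CPM to 71.5, 62.4 and 87.5 CPM (−0.81, SE 0.14). Aurka, the spindle pole kinase, measured 106.1, 128.1 and 121.9 CPM and then 59.1, 45.9 and 68.8 CPM (−1.03, SE 0.14). Tpx2, which binds and activates it, measured 300.3, 381.0 and 369.7 CPM and then 196.0, 147.3 and 217.6 CPM (−0.91, SE 0.14). Kif15, which backs up Kif11, changed by −1.05 (SE 0.13), the microtubule depolymerase Kif2c by −1.01 (SE 0.15), the spindle protein gene Hmmr by −0.98 (SE 0.17) and the minus-end motor Kifc1 by −0.97 (SE 0.11). Kifc1 has a near copy, Kifc5b, at 96.8% identity, so its count is uncertain.

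Cytokinesis genes fell in 6 of 6 cases (median −0.89). Ect2, which activates RhoA at the division plane, fell most, from 190.7, 223.8 and 204.6 CPM to 95, 80.1 and 119.1 CPM (−1.07, SE 0.13). Prc1, which bundles midzone microtubules, fell least, from 150.4, 199.7 and 171.5 CPM to 103.6, 82.3 and 112.2 CPM (−0.81, SE 0.13). Both kept every dox library under the lowest untreated one. Kif4, the motor that Prc1 recruits, measured 137.6, 181.3 and 168.2 CPM and then 86.7, 71.1 and 92.5 CPM (−0.96, SE 0.12). Kif23, a motor subunit of the centralspindlin complex that binds Ect2, measured 155.3, 200.1 and 181.9 CPM and then 104.8, 81.4 and 112.8 CPM (−0.84, SE 0.13). Kif20a, a motor needed at the midzone, changed by −0.92 (SE 0.13) and Anln, which links the contractile ring to the membrane, by −0.85 (SE 0.10). Kif20a shares transcribed sequence with its neighbour Cdc23 and Kif4 with Pdzd11, so some of their reads may belong to these genes. In all, 11 of the 50 overlap another gene of the count table by their RefSeq spans: Ccna2, Cdc25c, Foxm1, Cdc20, Aurka, Anln, Prc1, Kif20a, Smc4, Ncapd2 and Ncapg. Reads in such overlaps cannot be assigned without strand.

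Genes of condensin, topoisomerase II and the chromosome surface hold the 3 highest untreated levels per length, those of Top2a, Mki67 and Smc4, and fell in 7 of 7 cases (median −1.0). Top2a, which untangles sister chromatids, stood at 381.9 ± 51.5 RPKM (SD, n = 3). It measured 1687.5, 2195.0 and 2094.0 CPM untreated and 963.1, 840.5 and 1068.2 CPM after dox (−1.06, SE 0.12, adjusted p = 0.000119, edgeR). Mki67, which coats mitotic chromosomes, changed by −0.98 (SE 0.11). Within condensin I the core ATPase genes Smc2 and Smc4 measured 463.5, 537.1 and 509.3 CPM and 814.0, 906.5 and 864.5 CPM before dox. After it they measured 238.0, 221.1 and 284.1 CPM (−1.02, SE 0.10) and 475.0, 438.8 and 577.2 CPM (−0.79, SE 0.11). The fall of Smc4 was the smallest of the group. The non-core subunit genes Ncapd2, Ncapg and Ncaph changed by −1.05 (SE 0.11), −0.93 (SE 0.14) and −1.0 (SE 0.11).

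Ratios between partner genes within a library do not depend on how libraries are scaled. Of 23 pairs compared, reads per kilobase of 1 gene over the other did not overlap between groups for 10. The share among ratios of other genes tested was not measured, and the pairs were chosen with earlier results of these data known. The count is therefore not a trait particular to partner genes. With 3 libraries against 3 the exact two-sided permutation test cannot go under p = 0.1, which those 10 reached, and the adjusted p over the 23 pairs was 0.23 for each, so no pair passed the correction. The largest difference was that of securin to separase, which as the others did not pass. Pttg1 over Espl1 was 0.491, 0.378 and 0.490 untreated and 0.902, 1.09 and 0.904 after dox, a log2 difference of 1.09. Cdc25c over Cdc25b was 0.0849, 0.121 and 0.104 and then 0.0517, 0.0525 and 0.0658 (−0.86).

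Among these 10 were 2 pairs of the Ndc80 complex. Nuf2 over Ndc80 was 1.34, 1.30 and 1.41 untreated and 0.991, 0.905 and 0.944 after dox (−0.51). Spc24 over Ndc80 was 1.30, 1.20 and 1.24 and then 0.779, 0.782 and 0.628 (−0.78). Against both, Ndc80 was the lower partner per kilobase in all 3 untreated libraries and the higher in all 3 dox libraries. Smc4 over Smc2 was close between libraries of a group, at 2.29, 2.20 and 2.21 and then 2.60, 2.59 and 2.65 (0.23). Bub3 over Bub1b (0.25), Bub1 over Bub1b (−0.22), Ect2 over Kif23 (−0.24), Kif4 over Prc1 (−0.15) and Tpx2 over Aurka (0.13) made up the rest of the 10.

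The other 13 pairs overlapped between groups. Among them Aurkb over Aurka was 1.98, 1.97 and 2.08 untreated and 1.99, 2.30 and 1.85 after dox (difference 0.02). Aurkb over Incenp differed by −0.04, Birc5 over Incenp by −0.03 and Cdca8 over Incenp by 0.04. Top2a over Mki67 differed by −0.07 and Mybl2 over Foxm1 by −0.06. A test that does not pass with 3 libraries a group does not show that these ratios are equal.

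**Figure D4:**
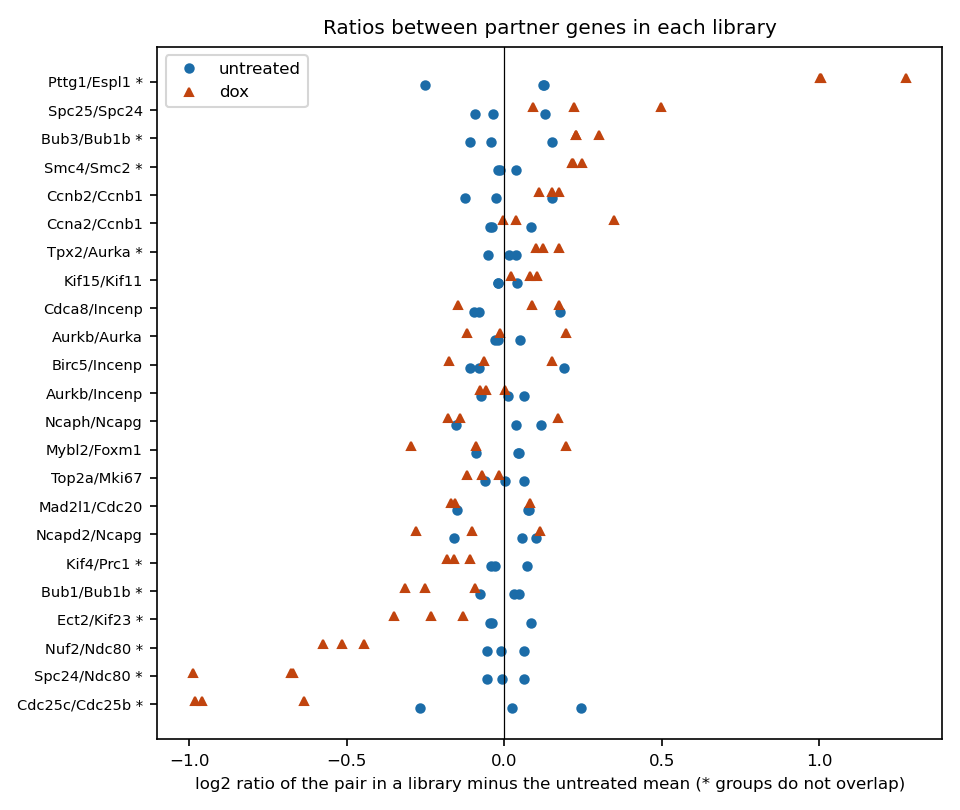
Log2 ratio of reads per kilobase for 23 pairs of partner genes in each library, minus the mean of the 3 untreated libraries (circles untreated, triangles dox; an asterisk marks pairs whose groups do not overlap). Pttg1 over Espl1 lies to the right and Cdc25c over Cdc25b, Spc24 over Ndc80 and Nuf2 over Ndc80 to the left, while the passenger complex pairs straddle 0.

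Other genes of cell division, in lists drawn up by function, were counted beside the 50 at the same threshold. These lists too were drawn up with earlier results of these data known. All 34 further kinetochore genes were lower (median −0.87), with the smallest p values for Cenpn (−1.36, SE 0.10), Kntc1, part of the complex that brings dynein to kinetochores (−1.33, SE 0.10), and Cenpm (−1.17, SE 0.09). Of 33 centrosome and spindle microtubule genes tested (Kif2b had too few counts), 31 were lower (median −0.83), among them Haus4 of the augmin complex (−1.06), Rcc1, which charges Ran (−0.88), and the gamma-tubulin gene Tubg1 (−0.93), while Nedd1 (−0.23) and Numa1 (−0.20) did not pass. The 3 genes particular to condensin II, Ncapd3 (−0.90), Ncapg2 (−1.06) and Ncaph2 (−0.59), were lower. Of 17 further genes of mitotic entry, 13 were lower (median −0.82), including the Cdk1-inhibiting kinases Pkmyt1 (−1.14, SE 0.08) and Wee1 (−1.11, SE 0.08) and the third phosphatase of the family, Cdc25a (−1.05, SE 0.07). Ppp2r2d, a phosphatase subunit that opposes Cdk1, rose by 0.32, and Ensa (0.11), Ppp2r1a (−0.10) and Cdk7 (0.04) did not pass.

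Further lists were less uniform. The anaphase-promoting complex and its regulators had 13 of 18 genes lower and 1, Anapc16 (0.44), higher, with a median of −0.31. Its inhibitor Fbxo5 (−0.99, SE 0.10), the subunit gene Anapc5 (−0.69, SE 0.08) and the ubiquitin-conjugating enzyme gene Ube2s (−0.70, SE 0.10) had the smallest p values. Cdc26 (−0.27), Anapc4 (−0.19), Anapc10 (0.08) and Anapc7 (0.01) did not pass. Of 19 further genes of cytokinesis, 9 were lower and 1, the myosin gene Myh9 (0.61, SE 0.08), higher (median −0.11). Cit, a kinase of the midbody (−1.06, SE 0.13), Racgap1, the partner of Kif23 (−0.86, SE 0.11), and Septin11 (−0.60, SE 0.08) led that list. Of 11 MuvB and DREAM genes, 6 were lower (median −0.41), led by Rbl1 (−0.96), Tfdp1 (−0.77) and Rbbp4 (−0.64), and E2f5 (0.67) and Tfdp2 (0.39) were higher, while Lin37 (0.14), Lin52 (0.09) and Rbl2 (−0.06) did not pass.

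Among 12 further kinesins, motors that move along microtubules, 5 were lower and 4 higher (median −0.13), beside 26.6% and 27.0% of all genes tested. The list was not limited to motors of mitosis. Kif22 (−1.06), Kif24 (−0.99), Kif20b (−0.93), Kif18a (−0.89) and Kif14 (−0.98) were lower. Kif21b (0.69), Kif1b (0.64), Kif13b (0.47) and Kif3b (0.26) were higher. Kif2a (−0.16), Kif5b (−0.10) and Kif3a (0.11) did not pass. Kif1b and Kif3a were thinly covered, with 48 and 86 counts in untreated replicate 1.

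DNA replication genes fell further than the mitotic set in their median, and their libraries were ordered differently. All 20 genes of licensing and the replication fork were lower (median −1.26), with the smallest p values for Mcm2, Cdc6 and Mcm5, and 17 of 20 fell at least 2-fold against 16 of the 50. Their summed level was 1979.5, 2085.3 and 2193.7 CPM after dox, whereas that of the 50 mitotic genes was 8564.4, 7242.1 and 9550.2 CPM. Dox replicate 2 was thus lowest for the mitotic sum and not for the replication sum. The difference between the sets was not tested.

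**Figure D5:**
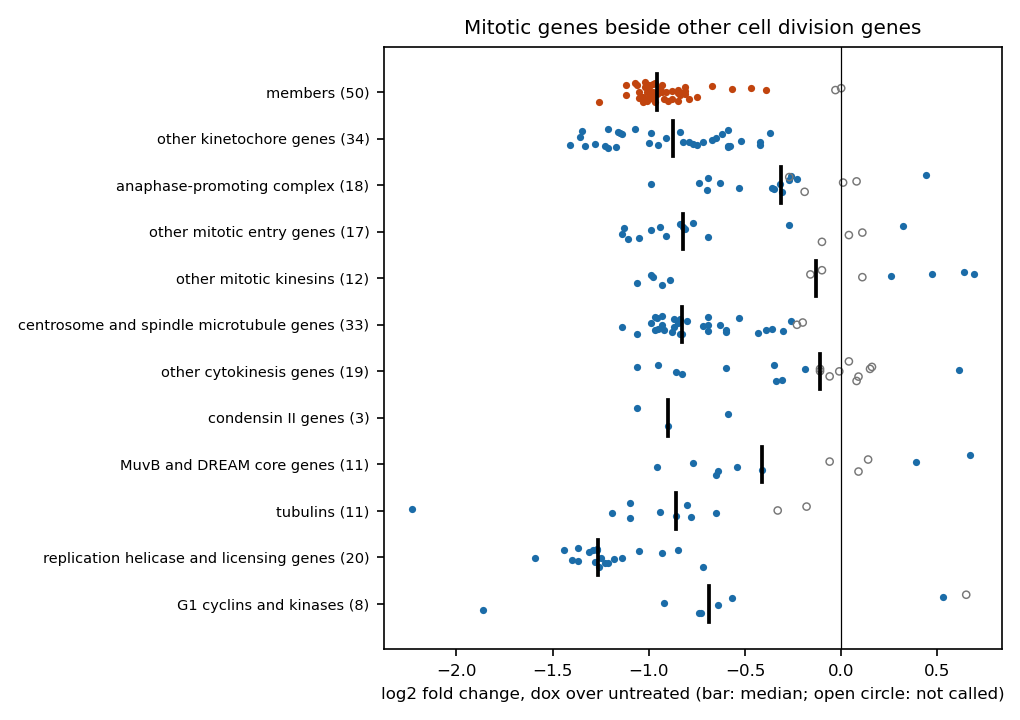
Log2 fold change, dox over untreated, of the 50 genes and of 11 other lists of cell division genes, with the number tested in parentheses, a bar for the median and open circles for genes that did not pass the test. The 50 genes centre on −0.96, replication genes on −1.26, and the lists of the anaphase-promoting complex, kinesins and cytokinesis spread to both sides of 0.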

How the data were processed

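RNA sequencing of 6 libraries gave whole-number counts of reads per gene, which the authors deposited with Entrez Gene identifiers and gene lengths. CASAVA 1.8.2, featureCounts and genome build mm9 are named, per the submitters' processing notes. As to aligner, annotation and use of strand, these were not given in the sources used. The gene length column is named so per the file headers. Without strand, reads of overlapping genes cannot be told apart. The 6 per-sample files were identical to the series table, and no per-sample column was left unmapped.

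Symbols came from RefSeq (GRCm38.p6), used for names and neighbours; 24176 of 26286 identifiers matched. Of 228 entries of the other lists, 218 matched by a current symbol and 9 by an older one; 1 further marker is not reported here. The 50 genes and all lists and pairs were chosen with earlier results of these data known. Every one of the 50 is named; library values are given for the largest and smallest change in each role, for genes not called and for pairs that did not overlap. From other lists the 3 genes of smallest p are named, with genes behind counts of 5 or fewer. Of each marker list the 2 with the highest mean CPM over all 6 libraries are named. Further genes that did not pass, and Cdk6, were named after their values were seen.

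Genes were filtered with filterByExpr (minimum count 10), leaving 12275 genes with 99.93% of counts, scaled by TMM (factors 0.9907 to 1.009) and compared with the quasi-likelihood test of edgeR 4.0.16 (R 4.3.3), with no covariates and adjustment over all genes tested. The SE is the log2 fold change over the square root of F. CPM are TMM-scaled, and RPKM divide them by gene length. Partner ratios were tested with exact permutation over libraries. Promoter letters were searched on both strands; for 32 of 44 windows the bases after the start matched a GENCODE M21 transcript of the gene in the same direction, and 0 matched in the opposite one. Near copies are other genes' transcripts with at least 95% identity over 300 bases. The fit was tested on simulated counts. Alternatives were other scalings, filters and tests (DESeq2 1.42.0, limma 3.58.1), the replicate number as a block, each library left out and a minimum fold change.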

Additional observations from a re-analysis of the deposited data

How the results depend on the processing

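The number of mitotic genes lower was 47 or 48 and the number higher 0 under every alternative but the minimum fold change of 1.5, which left 34. The gene lost at 47 was Nek2 each time. Under that minimum 670 genes were lower and 928 higher over the whole table, against 3266 and 3316, by the construction of the test. With each library left out in turn the median of the 50 ran from −1.05 to −0.82. Genes lower then numbered 2791 to 3193 and genes higher 2693 to 3168. The pairs that did not overlap numbered 11 to 13, against 10, but leaving out a library cannot lower that number. The median of all genes tested was 0.04 with upper-quartile scaling and 0.04 with no low-count filter. Pttg1 changed sign without untreated replicate 3, to 0.11 (adjusted p = 0.424, edgeR), its adjusted p lying between 0.424 and 1 over the alternatives, and the cause was not tested. Cdc25b, at 0.00, lay on both sides of 0, from −0.11 to 0.14, and was not called under any. Of 750 values of the 50 genes under 15 alternatives, 19 lost the call (14 under the minimum fold change, the others Nek2). Of 161 values of the partner ratios under their alternatives, all moved by less than the spread between libraries. With 3 libraries a group this outcome was fixed in advance, so it does not test how stable the ratios are. With the replicate number as a block, 48 mitotic genes were lower (3356 genes lower and 3434 higher in all), 0 were higher, and 13 pairs moved the same way in every numbered pair. Pairs that did not overlap are bound to be among those 13. Correlations of same-numbered libraries were 0.315, 0.293 and −0.0397, and those of differently numbered libraries ran from −0.35 to 0.037. Replicates 1 and 2 thus stood above every other pairing, and replicate 3 did not. The numbers were not taken to pair mice in the main fit, and whether they do was not settled. In the 200 bases nearest the start, CHR letters stood in 77.3% of the windows and CCAAT letters in 72.7%, against 12% and 28.6% of all windows and 8.01% and 30.5% of those of other genes tested. Each of the 50 genes had at least 194 reads in every library, and 3 libraries a group limit the ratio tests.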

Other observations

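Tubulins, from which the spindle is built and which also serve the resting cell, were lower for 9 of 11 genes (median −0.86). Tubb5 (−1.19, SE 0.09) measured 935.6, 1108.1 and 1078.0 CPM untreated and 440.3, 430.3 and 496.7 CPM after dox. Tuba1b changed by −1.10 (SE 0.10) and Tuba4a by −0.94 (SE 0.10), and Tuba1a (−0.33) and Tubb6 (−0.18) did not pass. Tubulin genes are close in sequence, so their counts are uncertain.

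Cyclins and kinases of G1 phase did not move as evenly as the mitotic ones. Of 8 measured, 6 were lower, 1 higher and 1 not called (median −0.69). Cdk4 (−0.74, SE 0.07), Cdk2 (−0.73, SE 0.08) and Ccne2 (−0.92, SE 0.10) had the smallest p values. Cdk6 had the deepest fall of the list (−1.86, SE 0.27), without overlap between groups. Ccnd2, a cyclin induced by growth signals, was higher (0.53), and Ccnd1 (0.65, adjusted p = 0.0707, edgeR) did not pass at 22 counts in untreated replicate 1.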
